A study of Mus musculus with 22 samples.

Results

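Whole thymus of TG Aire+/- mice was compared with whole thymus of Aire-/- mice, in 3 libraries of each group, which are 6 of the 22 samples of the series. The members were chosen by genotype and tissue labels alone. The series compares livers, thymi and sorted liver T cells of dnTGFβRII Aire-/- mice and their littermates, by bulk RNA sequencing. All 6 libraries came from untreated C57BL/6 mice between 2 and 4 weeks old. Aire-/- mice carried no working Aire allele and no transgene. TG Aire+/- mice carried 1 working Aire allele, and TG stands for the dnTGFβRII transgene that the series title names, a type II TGF-beta receptor without its signalling part. The labels do not name the transgene's promoter. In the widely used line of that name a Cd4 promoter drives it in T cells. The groups thus differ in the Aire alleles and in the transgene, and the contributions of these cannot be told apart in this comparison. Values of the 3 TG Aire-/- thymi in the same table are given beside the main ones. Nothing in the labels says that libraries of a group came from separate animals, so p-values measure the spread between these samples, which may be partly technical.

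Aire is a transcriptional regulator of medullary epithelial cells of the thymus. It lets these cells express genes that are otherwise restricted to gut, pancreas, skin and other organs, so that developing T cells meet those proteins and self-reactive clones are deleted or become regulatory T cells. Some medullary cells also take on the programmes of whole peripheral cell types, such as microfold, muscle, ionocyte or neuroendocrine cells, and are called mimetic cells. Interferons are made in the thymus without infection and switch on antiviral and antigen presentation genes there. TGF-beta restrains effector T cells and supports regulatory T cells, and the dominant-negative receptor blocks this in the cells that express it.

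The libraries held an inferred 22400000 to 27700000 reads, and between 11649 and 12358 genes reached 1 RPKM (reads per kilobase of gene, scaled to the mapped reads of the library). A gene of 2000 bases with 3 reads would then show 0.0542 to 0.067 RPKM, a floor for counting error only. Double-positive thymocyte and epithelial genes were present in all 6 libraries. Rag1, which cuts antigen receptor genes, lay between 158 and 614 RPKM, Cd8a between 368 and 549, the cortical proteasome gene Psmb11 between 15.1 and 23.5, and the medullary keratin Krt5 between 34.5 and 53.7. Foxn1, the regulator of thymic epithelium, lay between 5.81 and 9.36 RPKM. The main difference among the 6 libraries followed transcript length and not genotype. A first principal component took 73.5% of the variance over 12393 genes and had a Spearman correlation of −0.56 with transcript length across genes. Aire-/- replicate 1 and TG Aire+/- replicates 1 and 2 stood on one side, with high values of short transcripts, and the other libraries on the other side. The labels mention both Illumina and BGI library preparation without assigning either to a sample. Aire-/- replicate 1 correlated at 0.979 with TG Aire+/- replicate 1 but only at 0.906 and 0.911 with the libraries of its own group (Pearson, across genes). By Xist and Y-linked genes Aire-/- replicates 1 and 2 and TG Aire+/- replicate 2 were male and the other libraries female. The library labelled TG Aire-/- replicate 1 stood apart from all other thymus libraries, with a highest correlation of 0.86. It held Rag1 at 0.571 RPKM, Psmb11 at 0.207 and Foxn1 at 1.05. Its summed levels were 744.1 RPKM for double-positive, 360.3 for double-negative and 254.7 for cortical epithelial genes, each the lowest of the 9 libraries, and 1986 for mature single-positive genes, the highest. It is not one of the 6 libraries compared, but it enters the pooled spread of a fit over the 3 groups, and calls that change without it are given as such.

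**Figure D1:**
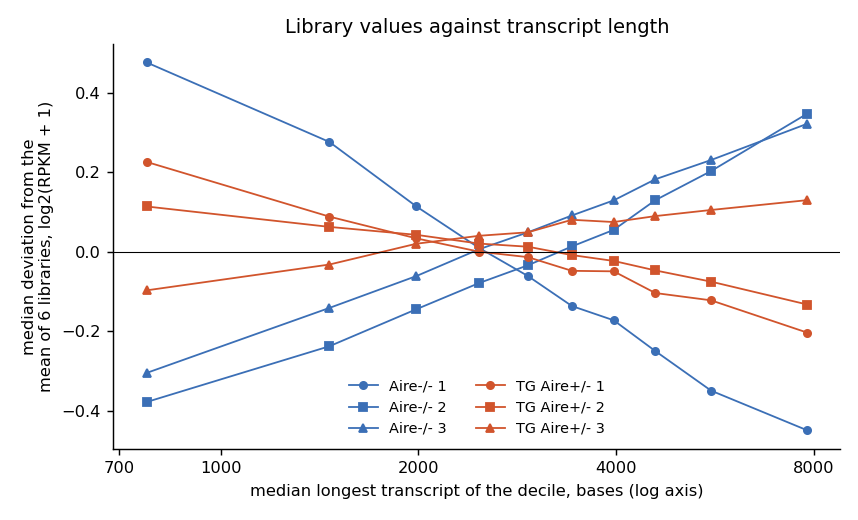
Median deviation of each of the 6 libraries from their mean, in log2(RPKM + 1), over 10 groups of genes ordered by longest annotated transcript (log axis, bases). Lines join the points of a library, with colour for the group and shape for the replicate. Aire-/- replicate 1 runs from 0.48 in the shortest group to −0.45 in the longest, while Aire-/- replicates 2 and 3 run the opposite way.

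Aire itself (GRCm38 chromosome 10, 78030022 to 78043610) stood at 27.2, 29.5 and 16.0 RPKM in the libraries labelled Aire-/- and at 13.6, 10.9 and 10.2 in those labelled TG Aire+/-. Every Aire-/- value lay above every TG Aire+/- value, so whole-gene Aire RNA was higher in mice labelled as lacking the protein. The difference was −0.97 on the log2(RPKM + 1) scale (SE 0.402), with a limma unadjusted p of 0.0428 and a Benjamini-Hochberg adjusted p of 1. TG Aire-/- thymi held 20.2, 6.50 and 7.63. A value for the whole gene does not show which exons the reads came from, so it does not check the genotype. Tgfbr2, the receptor that the transgene opposes, stood at 12.7, 30.4 and 29.2 RPKM in Aire-/- and at 13.5, 17.1 and 23.1 in TG Aire+/-, and the groups overlapped.

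With limma on log2(RPKM + 1) over all 21083 genes with a value, 40 genes rose in TG Aire+/- thymus (0.19%) and 1 fell (0.00474%), at a Benjamini-Hochberg threshold of 0.05. The genes that rose included gut hormones (Pyy, Gal), mucosal proteins (Lypd2, Reg3b, Psca, Tff3, Reg1, Pgc, Defa21), pancreatic enzymes (Clps, Pla2g1b, Cela3b), prostate and salivary proteins (Sbp, Sbpl, Dcpp2) and epithelial keratins (Krt4, Krt13, Krt9). In all 40 the groups did not overlap, against 6.46% higher and 2.55% lower over all genes with a value. The 40 were called from the same values, so their separation follows largely from the selection and adds no support. These genes were low: their TG Aire+/- means ran from 0.127 to 3.31 RPKM with a median of 0.405, no Aire-/- value was above 0.749, and 16 of them were listed at 0 in all 3 Aire-/- libraries. At the inferred depth the mean values correspond to 2.15 to 65.4 reads per library, with a median of 15.1, and to fewer than 10 reads in 12 genes. A group at 0 in every library adds no spread to the fit, so the standard errors and p-values of such genes may be too small. Only 7 of the 40 reached 1 RPKM in 3 of the 9 thymus libraries. Over the 12568 genes that did, limma called 0 (0%), with 84 higher (0.668%) and 34 lower (0.271%) at an unadjusted p under 0.05. Among these genes the groups did not overlap in 5.49% upwards and 2.26% downwards.

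The gene called lower was Mir1943, a microRNA gene at 0.133 to 0.182 RPKM in Aire-/- and listed at 0 in every transgenic library. On its annotated 73 bases those values are 0.255 to 0.297 of a read, so they do not stand for whole reads on that gene.

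The count of calls moved with the libraries in the fit. Without Aire-/- replicate 1 it was 9 higher and 8 lower, with the 6 libraries alone 12 higher and 0 lower, and with sex as a covariate 10 higher and 1 lower. Of the 40 genes that rose, 9, 8 and 10 were still called in these settings, in the same order. Without TG Aire-/- replicate 1 the count was 50 higher and 1 lower, and 36 of the 40 were still called. The filtered fit then called 4 genes, which were Pyy, Lypd2, Nts and Spink1 (named for being called). In that setting Pyy, Lypd2, Nts and Spink1 pass the filter through their TG Aire+/- values, so the filter favours the direction called. With values corrected for the length curve of each library 42 genes rose and 0 fell, and 34 of the 40 were among them. Reg3b, Ly6g, Pla2g1b, Sprr2i, Gsdmc3 and Dcpp2 were not. Of the 22 called genes named by the fixed rule given below, Lypd2 and Crabp1 were called under every alternative tried for the fit of all genes. Other called genes were not followed in this way.

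**Figure D2:**
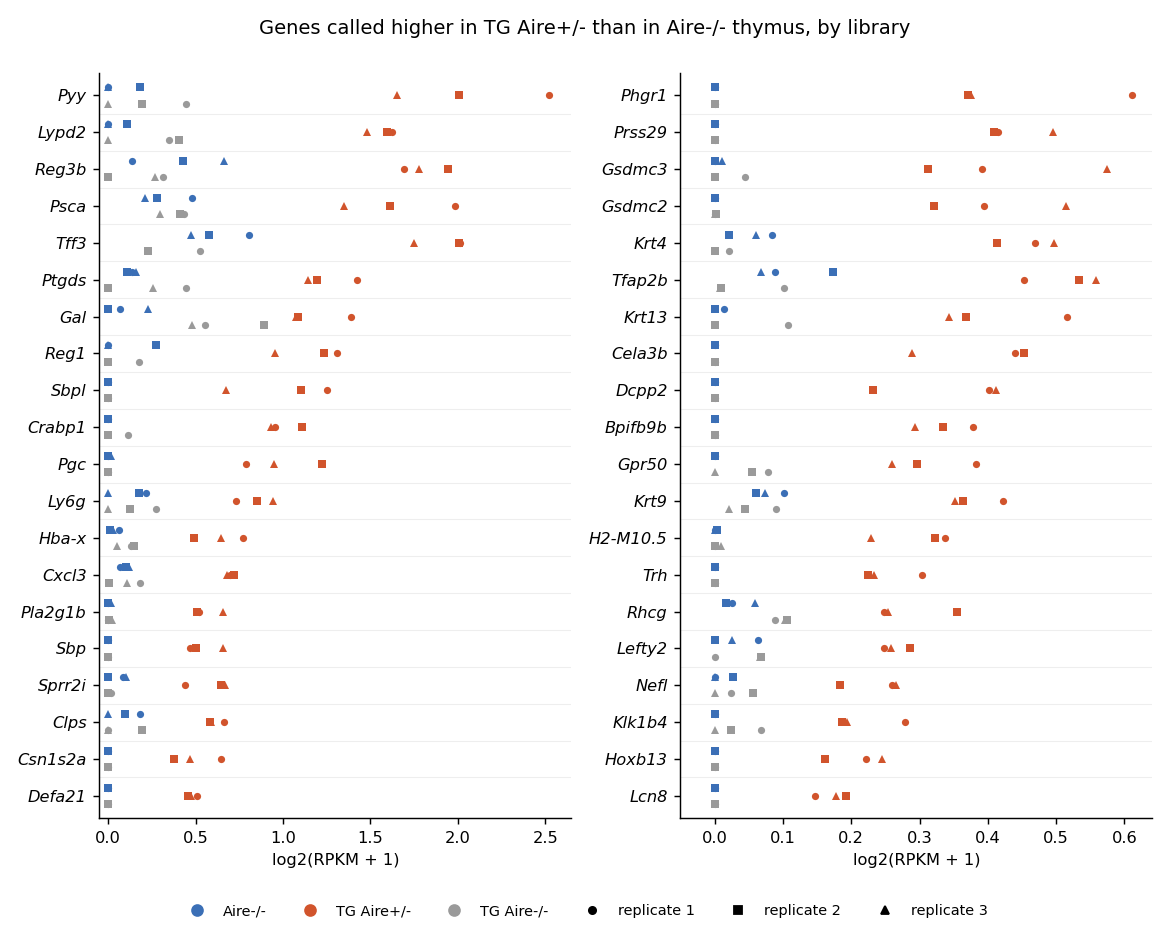
Values of the 40 genes that rose, as log2(RPKM + 1), by library. Colour marks the group, shape the replicate, the panels have different scales, and points at the same value cover each other. Every TG Aire+/- point lies to the right of every Aire-/- point, and Pyy has the largest difference, at 2.00 on this scale.

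Short stretches before the start sites of such genes are shown because these genes rose together and because a TATA box is a known feature of many tissue-restricted genes. Of the 40 genes 31 had a promoter entry in RefSeq (GRCm38.p6), and 10 of the 31 (32.3%) held TATAAA on the gene's own strand in the last 50 bases before the start, against 3.15% of 27025 genes. Over whole tissue-restricted lists, separate genes or not, the share ran from 0 of 18 nervous system and eye genes and 3 of 22 milk, saliva and tears genes (13.6%) to 8 of 25 mucosal genes (32%) and 13 of 29 cornified envelope genes (44.8%). The match is a description of these letters only, and it does not show a site in use. Starts are those of RefSeq, which can differ from the GENCODE gene bounds given elsewhere, as in Reg3b. The 60 bases before the start follow, 5′ to 3′ on the gene's strand, with TATAAA in capitals. It lies at −29 in Reg3b (chromosome 6, 78370825 to 78370884, plus strand), at −31 in Pgc (chromosome 17, 47726782 to 47726841, plus strand) and at −31 in Defa21 (chromosome 8, 21025485 to 21025544, plus strand). Pyy (chromosome 11, 102107833 to 102107892, minus strand) and Crabp1 (chromosome 9, 54764688 to 54764747, plus strand), which rose as well, have no match in this window.
Reg3b: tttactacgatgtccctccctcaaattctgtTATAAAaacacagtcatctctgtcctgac
Pgc: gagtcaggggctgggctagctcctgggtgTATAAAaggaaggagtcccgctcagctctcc
Defa21: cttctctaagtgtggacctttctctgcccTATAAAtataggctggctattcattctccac
Pyy: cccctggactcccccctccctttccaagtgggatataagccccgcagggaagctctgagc
Crabp1: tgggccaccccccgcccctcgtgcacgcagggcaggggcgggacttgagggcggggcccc

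Tissue-restricted genes were followed in 8 lists, of which 198 genes had a value. Of these, 163 had higher and 33 lower estimates in TG Aire+/- thymus, where 52.7% of all genes with a value were higher and 46% lower. The groups did not overlap in 72 higher (36.4%) and 3 lower genes, against 6.46% and 2.55% over all genes, and 7.96% and 3.07% over the 8795 genes with a mean under 1 RPKM. List members were chosen with earlier results of these data known, so these shares are a description and not a test. Of the 40 genes that rose 18 were in these lists, which hold 198 of the 21083 genes with a value. With length-corrected values 73 of the genes did not overlap upwards, where 7.79% of all genes did so (2.89% downwards). Without Aire-/- replicate 1 the count was 91, where 19.4% of all genes did so, and without TG Aire+/- replicate 1 it was 87, where 9.46% did. The shares of all genes apart downwards were 22.1% and 3.97% in these settings. In bulk tissue, more cells that express a gene and more RNA per cell cannot be told apart.

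Gut hormone genes were higher in TG Aire+/- thymus, with 17 of 17 estimates above 0 and 2 calls. In 9 of the 17 the groups did not overlap upwards (52.9%, against 6.46% of all genes). The median log2 difference was 0.40, against 0.01 over all genes. Pyy, the satiety hormone of enteroendocrine cells (chromosome 11, 102106676 to 102107832), stood at 0, 0.135 and 0 RPKM in Aire-/- and at 4.75, 3.02 and 2.15 in TG Aire+/-. TG Aire-/- thymi held 0.361, 0.143 and 0. Every TG Aire+/- value was thus above every other thymus value, and Pyy rose by 2.00 (SE 0.22, limma adjusted p = 0.0177). Gal, which encodes the neuropeptide galanin (chromosome 19, 3409915 to 3414544), stood at 0.0466, 0 and 0.17 against 1.62, 1.12 and 1.11, with 0.469, 0.856 and 0.394 in TG Aire-/-. It rose by 1.09 (SE 0.141, limma adjusted p = 0.0325). The TG Aire-/- values of Gal lay between the other groups. Gip, an incretin made by duodenal cells, stood at 0, 0.175 and 0 against 0.466, 0.978 and 0.679 RPKM (log2 0.68, limma adjusted p = 0.086). Nts, which encodes neurotensin, was listed at 0, 0.0322 and 0 against 2.03, 1.57 and 1.52. Its difference of 1.42 had a limma adjusted p of 0.638 in the fit of the 3 groups, in which TG Aire-/- replicate 1 held 2.14 RPKM and the others 0.0341 and 0.0994. Without that library the SE of Nts fell from 0.378 to 0.0835 and the adjusted p to 0.00324, so this call depends on it.

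Stomach and gut mucosa gave the largest number of calls of any list. Of 35 genes with a value 30 were higher, 7 rose, and the median was 0.52. The groups did not overlap upwards in 20 (57.1%, against 6.46% of all genes) and downwards in 0 (2.55% of all genes). Lypd2, a small protein of the Ly6 family (chromosome 15, 74732247 to 74734329), stood at 0, 0.077 and 0 RPKM in Aire-/- and at 2.08, 2.02 and 1.79 in TG Aire+/-, with 0.272, 0.326 and 0 in TG Aire-/-. It rose by 1.53 (SE 0.116, limma adjusted p = 0.0034). Reg3b, an antibacterial lectin (chromosome 6, 78370657 to 78373466), stood at 0.0987, 0.348 and 0.582 against 2.23, 2.84 and 2.42 RPKM and rose by 1.39 (SE 0.162, limma adjusted p = 0.0205, and 0.107 with length-corrected values). Its TG Aire-/- values were 0.243, 0 and 0.206. Tff3, a trefoil factor that protects mucous surfaces (chromosome 17, 31125306 to 31129646), stood at 0.749, 0.494 and 0.391 against 3.03, 3.01 and 2.36 RPKM and rose by 1.30. Of the 40 genes it had the highest Aire-/- value, and its RNA was present in all Aire-/- libraries. Psca, a surface antigen of stomach and bladder epithelium (chromosome 15, 74714839 to 74717069), stood at 0.392, 0.212 and 0.157 against 2.96, 2.05 and 1.55 and rose by 1.33. Reg1, a secreted lectin of the pancreas and gut, stood at 0, 0.207 and 0 against 1.48, 1.35 and 0.939 (log2 1.08, limma adjusted p = 0.0175). Pgc, the gastric pepsinogen C (chromosome 17, 47726842 to 47734482), was listed at 0, 0 and 0.0107 against 0.724, 1.34 and 0.932 RPKM. Defa21, a Paneth cell defensin (chromosome 8, 21025545 to 21026516), was listed at 0 in all 6 Aire-null libraries and stood at 0.424, 0.371 and 0.388 in TG Aire+/-, which is 3.98 to 4.91 reads. Defensin genes are near-identical copies, so reads may be split among them.

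Reg3g, the lectin paralogue of Reg3b, was the most abundant gene of the mucosal list to separate the groups and was named after its values were seen. It stood at 4.46, 9.63 and 6.00 RPKM in Aire-/- and at 26.3, 18.3 and 27.1 in TG Aire+/-, with 14.8, 1.48 and 1.35 in TG Aire-/-. Reg3g differed by 1.73 (SE 0.688, limma adjusted p = 1) and was not called, and the library labelled TG Aire-/- replicate 1 again lay above the others of its group.

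Of the 29 pancreatic genes among the deposited values 12 were listed at 0 in all Aire-/- libraries and 3 in all TG Aire+/- libraries. Of 27 with a value 22 were higher, 3 rose, and the median was 0.08. The groups did not overlap upwards in 11 of the 27 (40.7%, against 6.46% of all genes). Pla2g1b, the pancreatic phospholipase (chromosome 5, 115466262 to 115474722), stood at 0, 0 and 0.0132 against 0.431, 0.42 and 0.578 RPKM and rose by 0.55 (SE 0.0421, limma adjusted p = 0.0034, and 0.06 with length-corrected values). Clps, the colipase that assists pancreatic lipase (chromosome 17, 28558149 to 28560766), stood at 0.137, 0.069 and 0 against 0.582, 0.495 and 0.505 and rose by 0.52. Cela3b, an elastase (chromosome 4, 137420999 to 137430540), was listed at 0 in all Aire-/- and TG Aire-/- libraries and stood at 0.356, 0.369 and 0.222 in TG Aire+/-. Prss1, which encodes trypsinogen, stood at 0.252, 0.0955 and 0.242 in TG Aire+/- and at 0.00706 at most in Aire-/-, and did not pass the test (limma adjusted p = 0.212). Trypsinogen genes are near-identical copies, and their reads may be split. Cela1 was the only member with the opposite order, at 2.90 ± 0.253 RPKM in Aire-/- and 1.78 ± 0.445 in TG Aire+/- (mean and SD of 3 libraries).

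The milk, saliva and tears list had 23 genes with a value, of which 19 were higher and 2 rose, with a median of 0.18. The groups did not overlap upwards in 11 of the 23 (47.8%, against 6.46% of all genes). Csn1s2a, a casein (chromosome 5, 87774567 to 87788797), was listed at 0 in all 6 Aire-null libraries and stood at 0.562, 0.297 and 0.385 RPKM in TG Aire+/-, a rise of 0.50 (SE 0.0594, limma adjusted p = 0.024). Dcpp2, a demilune cell protein of the salivary gland, was likewise listed at 0 in those libraries and stood at 0.321, 0.175 and 0.33 in TG Aire+/-, a rise of 0.35 (limma adjusted p = 0.0325, and 0.107 with length-corrected values). For Csn1s2a and Dcpp2 the spread in the fit comes from the TG Aire+/- libraries alone. Bpifb1, a secreted protein of airway and salivary epithelium, stood at 0.23, 0.353 and 0.221 against at most 0.0222, with a limma adjusted p of 0.0584, which was 0.04 without TG Aire-/- replicate 1. Mucl1, a mucin-like gland protein, stood at 0, 0 and 0.173 against 0.318, 0.551 and 0.444. Csn2, the beta-casein gene and by far the most abundant of the list, was the 1 gene ordered the other way and is named for that. It stood at 47.4, 48.7 and 41.1 RPKM in Aire-/- and at 17.3, 24.4 and 32.9 in TG Aire+/-, with 26.0, 5.88 and 8.09 in TG Aire-/- (log2 −0.90, limma adjusted p = 1). The summed level of the list was 45.9 to 59.5 RPKM in Aire-/- and 34.3 to 44.3 in TG Aire+/-, opposite to the direction of most of its genes.

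Cornified envelope and squamous keratin genes had 30 of 35 higher estimates, 2 calls and a median of 0.17. The groups did not overlap upwards in 13 (37.1%, against 6.46% of all genes) and downwards in 0 (2.55% of all genes). Krt4 (chromosome 15, 101918535 to 101924735) and Krt13 (chromosome 11, 100117327 to 100121566) form the keratin pair of oesophageal lining. Krt4 stood at 0.0601, 0.0142 and 0.0427 against 0.385, 0.331 and 0.411 RPKM and rose by 0.40 (SE 0.0312, limma adjusted p = 0.0034). Krt13 stood at 0.0097, 0 and 0 against 0.429, 0.29 and 0.268 and rose by 0.40 (SE 0.0501, limma adjusted p = 0.0283). Both keratins of the pair rose, from values that correspond to few reads. Krt1, a keratin of upper epidermis, stood at 0.125, 0.0929 and 0.0799 against 0.678, 0.468 and 0.281, without passing (limma adjusted p = 0.302). Sprr1b, a cross-linked envelope precursor, stood at 0.0456, 0.092 and 0.0547 against 0.871, 0.802 and 0.295. The list's summed level overlapped between the groups, at 37.8 to 62.7 RPKM in Aire-/- and 47.4 to 60.9 in TG Aire+/-.

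Lists for the nervous system and eye, for liver plasma proteins and for reproductive tract and gonad had medians of 0.02, 0.07 and 0.05. In the same order, the groups did not overlap upwards in 3 of 21, 3 of 23 and 2 of 17 genes. These shares were 14.3%, 13% and 11.8%, against 6.46% of all genes. Only 2 genes of the 3 lists rose, Crabp1 and Sbp. Crabp1, a retinoic acid binding protein of the nervous system (chromosome 9, 54764748 to 54773110), was listed at 0 in every Aire-/- library and stood at 0.937, 1.16 and 0.904 RPKM in TG Aire+/-, with 0.0833, 0 and 0 in TG Aire-/-. It rose by 1.0 (SE 0.0592, limma adjusted p = 0.00154). The lens crystallins Cryaa and Crybb2 were higher without a call: Cryaa stood at 0.0345, 0.0948 and 0 against 0.241, 0.446 and 0.73 RPKM, and Crybb2 at 0 in all Aire-/- libraries against 0.158, 0.213 and 0.0893. The fibrinogen chains Fgb and Fgg reached means of 0.209 ± 0.0652 and 0.295 ± 0.0816 RPKM in TG Aire+/- (n = 3), against 0.00875 ± 0.0151 and 0.00572 ± 0.0099. Apoa1, the main protein of high-density lipoprotein, stood at 3.73, 1.91 and 1.89 against 8.34, 7.74 and 4.23 RPKM, with a limma adjusted p of 1. Sbp, a spermine-binding protein of the prostate (chromosome 17, 23941672 to 23945607), was listed at 0 in all 6 Aire-null libraries and stood at 0.383, 0.415 and 0.576 in TG Aire+/-. It rose by 0.54 (SE 0.0466, limma adjusted p = 0.00614), and its neighbour and paralogue Sbpl (chromosome 17, 23953084 to 23955274) rose by 1.01 from 0 to 1.38, 1.15 and 0.595. Zp3 and Zp2, which encode egg coat proteins, lay apart in opposite directions: Zp3 at 0 in all Aire-/- libraries against 0.286, 0.0885 and 0.152, and Zp2 at 1.38, 2.60 and 1.60 against 0.805, 0.40 and 0.552 RPKM.

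Ptgds, the prostaglandin D synthase of brain and testis (chromosome 2, 25466709 to 25470046), is in none of the lists and was among the 10 largest rises. It stood at 0.10, 0.0756 and 0.119 RPKM in Aire-/- and at 1.68, 1.29 and 1.21 in TG Aire+/-, a rise of 1.12 (SE 0.123, limma adjusted p = 0.0177), with 0.364, 0 and 0.196 in TG Aire-/-. The remaining calls outside the lists, named for being called, include the chemokine gene Cxcl3 (0.0698 ± 0.0209 against 0.623 ± 0.0207 RPKM, n = 3 each), the transcription factor genes Tfap2b and Hoxb13, the thyrotropin-releasing hormone gene Trh and the gasdermins Gsdmc2 and Gsdmc3. Trh was listed at 0 in all Aire-/- libraries and stood at 0.234, 0.168 and 0.175 RPKM in TG Aire+/-. Ly6g, which is also a neutrophil marker, rose from 0.162, 0.13 and 0 to 0.659, 0.801 and 0.92 RPKM (log2 0.71, limma adjusted p = 0.0325, and 0.0881 with length-corrected values). Of the 15 neutrophil genes with a value it was the only one with groups that did not overlap, and the summed level of that list overlapped, at 32.8 to 148.9 RPKM in Aire-/- and 41.8 to 115 in TG Aire+/-.

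**Figure D3:**
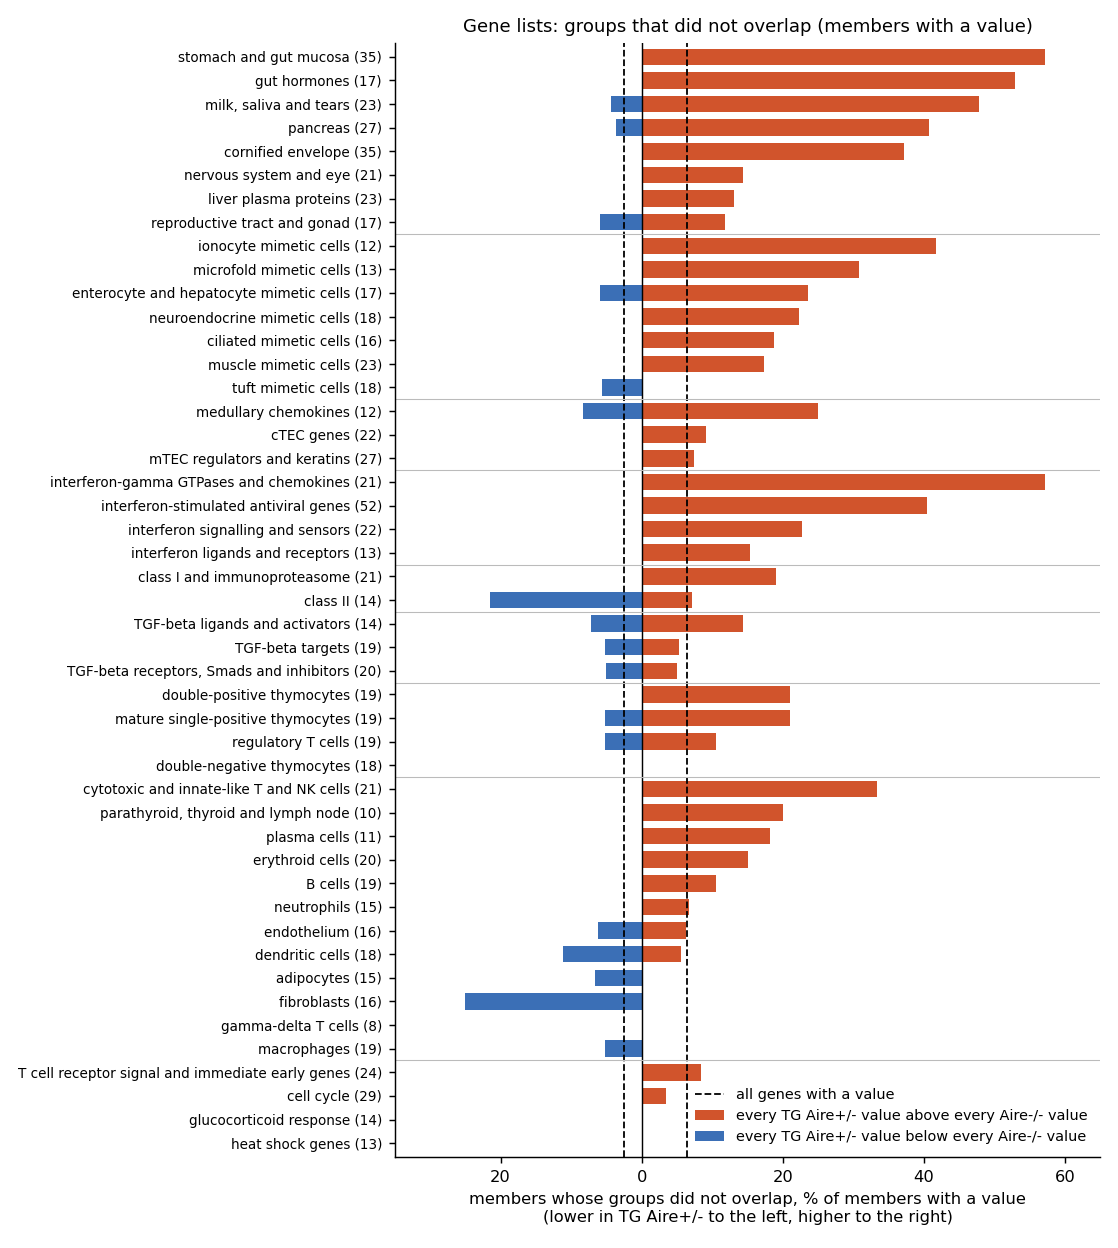
Share of the members with a value (their number in brackets) in which every TG Aire+/- value lay above (right) or below (left) every Aire-/- value, for 47 gene lists grouped by kind. Dashed lines give the same shares over all genes with a value, 6.46% and 2.55%. The mucosal and interferon-gamma lists reach 57.1% to the right, and fibroblast genes reach 25% to the left.

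Regulators and keratins of the medullary epithelium were balanced between the groups. Of 27 such genes 15 were higher and 12 lower, 2 did not overlap upwards (7.41%, near the 6.46% of all genes), and the median was 0.02. The summed level lay between 352.5 and 413.9 RPKM in Aire-/- and between 374.3 and 390.6 in TG Aire+/-. Elf3, an epithelial transcription factor, stood at 1.31, 1.56 and 1.07 against 2.48, 1.66 and 2.17. Cortical epithelial genes had 12 of 22 higher, 2 that did not overlap upwards and a median of 0.02. Scx, a transcription factor best known from tendon, stood at 1.23, 0.73 and 0.501 against 2.08, 1.40 and 1.47 RPKM, and at 0.246 to 0.358 in TG Aire-/-.

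The list of medullary chemokines had 8 of 12 higher and 4 lower estimates. The groups did not overlap upwards in 3 (25%, against 6.46% of all genes) and downwards in 1 (8.33%, against 2.55%). Ccl20, the ligand of Ccr6 that microfold cells make, stood at 3.38, 2.58 and 1.72 against 6.39, 5.35 and 6.75 RPKM. Xcl1, which medullary cells use to attract dendritic cells, stood at 1.58, 0.221 and 0.893 against 2.19, 2.78 and 2.14, and Ccl22, a ligand of Ccr4, at 32.9, 32.5 and 26.3 against 35.6, 40.8 and 36.3. Ccr7, the receptor that brings thymocytes into the medulla, had the opposite order, with 52.5, 50.1 and 43.0 against 31.1, 38.6 and 39.5. None was called by limma, and the list's median of 0.18 became −0.06 without TG Aire+/- replicate 3.

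Mimetic cell genes in 7 lists had 117 members with a value, of which 81 were higher, 24 did not overlap upwards (20.5%, against 6.46% of all genes) and 2 downwards (2.55% of all genes), and 0 were called. The shares differed between cell types. Ionocyte genes had 5 of 12 that did not overlap, including the defining factor Foxi1, listed at 0 in all Aire-/- libraries against 0.107, 0.198 and 0.0859 RPKM, and the ionocyte factor Ascl3, listed at 0 against 0.295, 0.173 and 0.229. Ascl3 had a difference of 0.30 with a limma adjusted p of 0.134. Microfold genes had 6 higher and 7 lower estimates and a median of −0.01. Their summed level overlapped, at 357.1 to 467.7 RPKM in Aire-/- and 433.2 to 446.3 in TG Aire+/-. In 4 of the 13 the groups did not overlap upwards. Among these 4, the glycoprotein gene Gp2, a defining marker, stood at 1.88, 1.21 and 1.87 against 2.63, 3.13 and 5.45 RPKM. Pglyrp1, a peptidoglycan-binding protein, stood at 9.90, 5.72 and 4.57 against 23.9, 16.1 and 11.8. Muscle genes had 20 of 23 higher and 4 that did not overlap (Tnnc1, Tnni1, Myh3 and Myh8, which encode sarcomere proteins). Tnni1 stood at 0.623, 0.62 and 0.599 against 0.939, 1.62 and 1.05 RPKM. Neuroendocrine, ciliated, and enterocyte and hepatocyte lists had 4 of 18, 3 of 16 and 4 of 17 genes that did not overlap upwards. Saa3 and Saa1, acute-phase serum amyloids, stood at 3.91 ± 3.22 and 0.828 ± 0.717 RPKM against 18.2 ± 9.07 and 3.21 ± 0.176 (n = 3 each). Tuft cell genes had 9 higher and 9 lower estimates, 0 genes that did not overlap upwards and 1 downwards, Sucnr1. Whether the lists differ from each other was not tested.

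Interferon-responsive genes were higher in TG Aire+/- thymus by small amounts, without any call. In 4 lists 108 genes had a value, of which 95 were higher and 12 lower, 40 did not overlap upwards (37%, against 6.46% of all genes) and 0 downwards (2.55% of all genes). Antiviral genes had 47 of 52 higher, 21 that did not overlap and a median of 0.37, and interferon-gamma GTPases and chemokines 20 of 21 higher, 12 that did not overlap and a median of 0.46. Signalling genes and sensors had 18 of 22 higher, 5 that did not overlap and a median of 0.20. Limma called none of these genes with either set of genes, and 11 antiviral genes had higher values at an unadjusted p under 0.05 in the fit of all genes, where 2.68% of genes did so and 0.873% in the opposite direction. With length-corrected values the medians of the antiviral and GTPase lists were 0.38 and 0.51, and over the 6 libraries left out in turn they lay between 0.32 and 0.43 and between 0.42 and 0.49.

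Rtp4, an antiviral protein that binds helicases of some viruses (chromosome 16, 23520291 to 23614222), stood at 3.02, 3.32 and 3.26 RPKM in Aire-/- and at 10.9, 7.04 and 8.29 in TG Aire+/-. TG Aire-/- thymi held 14.5, 9.12 and 4.93, so both transgenic groups lay above the Aire-/- values. The difference of 1.19 (SE 0.335) had a limma adjusted p of 0.703. Oas3, which makes the second messenger that activates RNase L (chromosome 5, 120753098 to 120777661), stood at 0.638, 0.789 and 0.853 against 1.91, 1.72 and 2.57 RPKM, with 2.25, 0.984 and 0.648 in TG Aire-/-. Ifit1, which binds viral RNA ends (chromosome 19, 34640871 to 34650009), stood at 9.88, 7.25 and 7.12 against 14.6, 10.8 and 11.4, and at 7.27, 6.34 and 7.48 in TG Aire-/-. For Ifit1 the TG Aire-/- values overlapped or lay below those of Aire-/-. Sp100, a nuclear body protein, stood at 32.5, 33.3 and 33.4 against 47.8, 42.6 and 43.0 RPKM and had the smallest standard error of the named interferon genes, 0.111 for a difference of 0.41. Among the guanylate-binding proteins, which attack vacuoles of pathogens, Gbp6 stood at 7.97, 9.65 and 11.8 against 14.1, 14.0 and 15.7, Gbp9 at 11.0, 14.9 and 12.1 against 19.8, 17.3 and 16.0, and Gbp10 at 2.95, 3.20 and 4.14 against 5.17, 5.07 and 6.52. All TG Aire-/- values of these 3 genes lay above the Aire-/- values, with 22.6, 19.7 and 16.3 for Gbp6.

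Upstream of these genes, Irf9, the DNA-binding part of the type I interferon complex (chromosome 14, 55603571 to 55610030), stood at 10.0, 7.27 and 8.87 against 16.4, 12.6 and 16.1 RPKM, a difference of 0.72 (SE 0.26, limma adjusted p = 1). Its partner Stat2 stood at 10.7, 9.23 and 10.4 against 15.8, 11.8 and 11.2. Zbp1, a sensor of Z-form nucleic acid, stood at 9.79, 6.94 and 7.78 against 16.4, 14.7 and 13.0, and Usp18, which dampens the receptor, at 8.22, 8.03 and 8.30 against 12.4, 8.69 and 14.0. The receptor chains Ifnar2 and Il10rb had groups that did not overlap, with Il10rb at 10.2, 11.0 and 10.6 against 17.5, 16.4 and 13.3. Of the ligands, Ifng was at 0.309, 0 and 0.074 RPKM in Aire-/- and at 0.147, 0.223 and 0.0335 in TG Aire+/-, where the groups overlapped, and Ifnb1 was listed at 0 in Aire-/- and at 0.0526 RPKM at most in TG Aire+/-. Ifng and Ifnb1 were looked up after the lists had been seen.

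**Figure D4:**
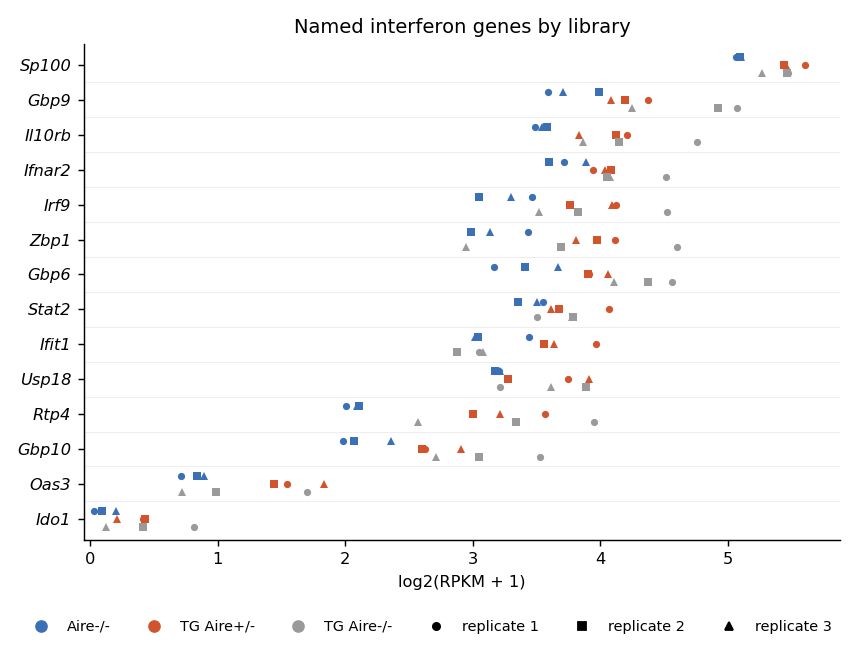
Values of the 14 named interferon genes as log2(RPKM + 1) by library, ordered by level. Colour marks the group and shape the replicate. TG Aire+/- points lie to the right of Aire-/- points in every gene, by 0.25 to 1.19 on average, and TG Aire-/- points lie above the TG Aire+/- range in Gbp6 and at or below the Aire-/- range in Ifit1.

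Interferon factors bind a stimulated response element whose core is GAAA, any 2 bases and GAAA again, and upstream stretches are printed to show it beside genes that were higher together. Both strands were searched in the 250 bases before each start, overlapping matches counting once for a gene. The core was present in 3.46% of 27025 genes in RefSeq (GRCm38.p6), in 15 of 43 antiviral genes with an entry (34.9%) and in 10 of 11 GTPases and chemokines (90.9%). Among those whose groups did not overlap the numbers were 7 of 16 and 5 of 6. None of the 31 genes that rose and had an entry held it, and 31 genes are too few to set this apart from 3.46%. Tgtp2, a GTPase, stood at 13.9, 14.1 and 16.3 against 20, 20.2 and 25.0 RPKM, Gbp7 at 3.86, 4.93 and 5.52 against 7.13, 6.23 and 6.73, and the chemokine gene Cxcl9 at 0.886, 1.06 and 0.691 against 2.54, 2.41 and 2.81, with 55.7, 6.01 and 1.53 in TG Aire-/-. The following are the 160 bases before the RefSeq start of Ifit1 (chromosome 19, 34640729 to 34640888, plus strand), Oas3 (chromosome 5, 120777660 to 120777819, minus strand), Tgtp2 (chromosome 11, 49064213 to 49064372, minus strand) and Gbp7 (chromosome 3, 142530176 to 142530335, plus strand). Those of Cxcl9 (chromosome 5, 92328080 to 92328239, minus strand) are printed as well and hold no match, though the counts above cover 250 bases. Capitals mark the core or its reverse complement, and each sequence is written 5′ to 3′ on the gene's strand. Ifit1 has 2 matches, at −104 and −85, and Oas3, Tgtp2 and Gbp7 have 1 each, at −75, −70 and −53.
Ifit1: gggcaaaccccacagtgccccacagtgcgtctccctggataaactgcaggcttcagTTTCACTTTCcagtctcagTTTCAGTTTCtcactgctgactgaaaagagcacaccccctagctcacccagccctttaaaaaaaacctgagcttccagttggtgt
Oas3: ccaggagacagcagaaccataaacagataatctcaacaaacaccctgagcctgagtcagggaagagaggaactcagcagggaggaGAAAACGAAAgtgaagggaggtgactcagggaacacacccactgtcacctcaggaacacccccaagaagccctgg
Tgtp2: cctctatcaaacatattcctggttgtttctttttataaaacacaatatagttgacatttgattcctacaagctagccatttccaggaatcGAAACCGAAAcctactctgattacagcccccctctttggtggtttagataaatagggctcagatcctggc
Gbp7: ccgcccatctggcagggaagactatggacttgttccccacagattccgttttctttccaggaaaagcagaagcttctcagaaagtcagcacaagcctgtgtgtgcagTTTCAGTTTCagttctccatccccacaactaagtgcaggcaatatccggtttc
Cxcl9: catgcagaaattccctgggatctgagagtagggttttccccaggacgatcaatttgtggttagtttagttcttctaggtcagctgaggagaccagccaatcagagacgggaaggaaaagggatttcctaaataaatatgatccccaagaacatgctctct

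Class I and immunoproteasome genes had 16 of 21 higher and a median of 0.20. In 4 of them the groups did not overlap upwards (19%, against 6.46% of all genes). B2m, the class I light chain, stood at 791, 608 and 625 RPKM against 1090, 1035 and 930, and the peptide transporter Tap1 at 42.7, 37.5 and 40.2 against 45.8, 43.9 and 48.9. Class II genes had 12 of 14 lower and a median of −0.12. In 3 of them the groups did not overlap downwards (21.4%, against 2.55% of all genes). Cd74, the invariant chain, stood at 973, 799 and 700 against 593, 557 and 641 RPKM, H2-Eb2 at 8.44, 13.6 and 11.6 against 4.32, 5.82 and 8.18, and H2-DMb2, a peptide exchange factor chain, at 35.7, 44.1 and 37.9 against 28.7, 35.3 and 32.6. Rfx5, a regulator of class II promoters, was the only class II list gene to separate upwards, at 4.31, 6.15 and 5.83 against 7.75, 7.42 and 7.14. None of these genes was called by limma. B cell and dendritic cell markers, which class II genes also follow, had 11 of 19 and 6 of 18 higher estimates, with summed levels of 323.8 to 697.4 RPKM against 438.1 to 492.2 and of 201.3 to 233.9 against 231.2 to 293.1, and their part in the class II values was not tested.

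The lower genes named for their small p values, none of them called, had varied roles. Cyp26a1, which degrades retinoic acid (chromosome 19, 37697798 to 37701536), stood at 3.70, 4.28 and 3.11 RPKM in Aire-/- and at 0.971, 1.41 and 1.66 in TG Aire+/-. It had the smallest p of the lower genes that passed the filter, with a difference of −1.0 (SE 0.21) and a limma adjusted p of 0.301 in the fit of all genes. TG Aire-/- thymi held 0.839, 0.556 and 0.395. Il13, a cytokine of type 2 lymphocytes (chromosome 11, 53631324 to 53634702), stood at 6.33, 6.16 and 5.37 against 2.20, 2.30 and 2.37 RPKM, with 5.73, 1.72 and 1.57 in TG Aire-/-. Ccl11, the chemokine eotaxin (chromosome 11, 82057823 to 82062955), stood at 6.25, 8.67 and 6.82 against 4.10, 4.28 and 4.09, and Chil4, a chitinase-like protein of type 2 responses, at 2.48, 4.24 and 3.33 against 1.57, 1.24 and 2.45. The groups did not overlap in any of these genes, though Chil4 did so by a margin of the second decimal. Without TG Aire-/- replicate 1 the adjusted p of Il13 was 0.0631. Il5, a further type 2 cytokine looked up for comparison, had the opposite order, at 0.019, 0.0377 and 0 against 0.299, 0.149 and 0.524 RPKM, and Il4 overlapped at 0.461, 0.257 and 0.0521 against 0.24, 0.228 and 0.144. Tspan9, a tetraspanin, stood at 5.82, 9.81 and 9.27 against 2.71, 2.77 and 4.56, Rac3, a small GTPase, at 3.93, 4.78 and 4.19 against 1.90, 1.92 and 3.12, and the histidine ammonia-lyase gene Hal at 4.17, 3.83 and 2.55 against 1.80, 1.24 and 1.63.

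Fibroblast and matrix genes had 15 of 16 lower estimates, 4 that did not overlap downwards (25%, against 2.55% of all genes), 0 upwards (6.46% of all genes) and a median of −0.58. Postn, which encodes the matrix protein periostin (chromosome 3, 54361109 to 54391037), stood at 17.0, 36.9 and 25.2 RPKM against 6.63, 11.0 and 9.76. The collagen genes Col3a1, Col1a2 and Col1a1 stood at 33.1 ± 13.8, 13.5 ± 4.25 and 11.3 ± 4.85 RPKM against 13.7 ± 4.54, 6.00 ± 1.80 and 4.33 ± 1.49 (n = 3 each), and Col6a2 at 12.7 ± 5.09 against 4.90 ± 1.28. Within both groups replicate 1 had the lowest value of each of these 5 genes, and these libraries also have the lowest values of long transcripts in their groups. The list's median was −0.53 with length-corrected values, −0.90 without Aire-/- replicate 1 and −0.46 without TG Aire+/- replicate 1. The part of tissue composition in it was not tested. Endothelial and adipocyte genes, other stromal markers, had 10 of 16 and 11 of 15 lower estimates and medians of −0.05 and −0.04.

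**Figure D5:**
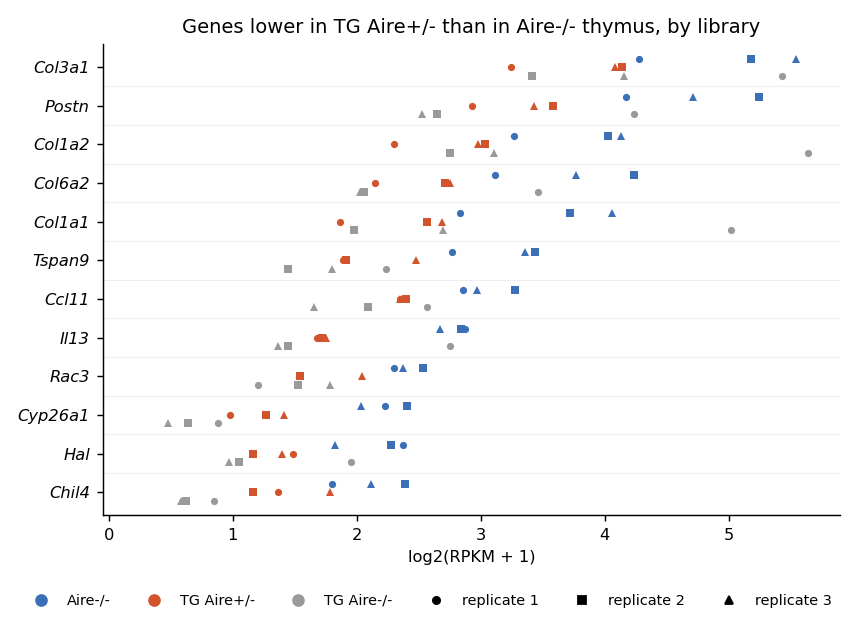
Values of 12 named genes that were lower in TG Aire+/- thymus, as log2(RPKM + 1) by library, with colour for the group and shape for the replicate. All Aire-/- points lie to the right of all TG Aire+/- points, and no gene was called. TG Aire-/- replicate 1 lies to the right of its group in the collagen genes and in Il13.

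The TGF-beta pathway was examined for its ligands and activators, its receptors and Smads, and its targets. Receptors, Smads and inhibitors had 17 of 20 lower estimates, 1 that did not overlap in each direction (5% each, against 6.46% and 2.55%) and a median of −0.14. Smad7, the inhibitor that TGF-beta itself induces, stood at 2.28, 3.33 and 2.65 against 1.82, 1.64 and 2.06 RPKM, and Tgif1, a corepressor of Smads, at 8.02, 5.15 and 6.67 against 10.3, 10.6 and 8.78. TG Aire-/- thymi held 6.31, 1.77 and 1.07 for Smad7 and 8.79, 9.54 and 10.0 for Tgif1. Ligands and activators had 6 higher and 8 lower, with 2 of 14 apart upwards (14.3%, against 6.46%) and 1 downwards (7.14%, against 2.55%). Among them Lrrc32, which holds latent TGF-beta on regulatory T cells, stood at 1.11, 1.74 and 1.62 against 2.34, 2.23 and 2.17, Nrros, its counterpart on myeloid cells, at 27.6, 22.2 and 24.9 against 36.3, 28.7 and 27.9, and the latency protein gene Ltbp3 at 2.34, 4.10 and 3.98 against 2.33, 1.94 and 2.24. Targets had 12 of 19 higher and 7 lower and a median of 0.18. In each direction 1 of the 19 did not overlap (5.26% each, against 6.46% and 2.55%). Itgae, the CD103 chain that TGF-beta induces in T cells (chromosome 11, 73090583 to 73147446), stood at 1.62, 3.50 and 2.69 against 0.783, 0.828 and 1.58 RPKM, with 1.37, 0.416 and 0.354 in TG Aire-/-. Tbx21, the T-bet gene that TGF-beta holds down, stood at 0.951, 0.503 and 0.843 against 0.958, 1.29 and 1.18, with 9.50, 1.13 and 0.352 in TG Aire-/-. Its highest Aire-/- value, 0.951, lay only just under its lowest TG Aire+/- value, 0.958. Limma called 0 genes of the 3 lists.

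Cytotoxic and innate-like T and NK cell genes had 19 of 21 higher, 7 that did not overlap upwards (33.3%, against 6.46% of all genes), 0 downwards (2.55% of all genes), 0 calls and a median of 0.21. Gzmb, granzyme B (chromosome 14, 56258838 to 56262260), stood at 0.173, 0.399 and 0.267 RPKM in Aire-/- and at 2.44, 2.86 and 2.57 in TG Aire+/-, with 48.0, 3.11 and 1.55 in TG Aire-/-. Gzmb RNA was several times higher in all TG Aire+/- libraries than in any Aire-/- library, while the difference of 1.5 had a pooled SE of 0.95 and a limma adjusted p of 1. Without TG Aire-/- replicate 1 the SE was 0.2 and the adjusted p 0.0482, which was 0.0566 when values were also length-corrected. The killer cell receptors Klrg1 and Klrk1 stood at 0.164, 0.111 and 0.0988 against 0.692, 0.425 and 1.01 RPKM and at 0.291, 0.264 and 0.415 against 0.911, 0.582 and 0.658. Fasl, the death ligand, stood at 0.0966, 0.137 and 0.116 against 0.536, 0.253 and 0.292. The list's summed level overlapped, at 74.3 to 126.6 RPKM in Aire-/- and 110 to 122.3 in TG Aire+/-.

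Thymocyte stage genes gave no call. Double-positive genes had 16 of 19 higher and a median of 0.16. In 4 of them the groups did not overlap upwards (21.1%, against 6.46% of all genes). Cd8a stood at 455, 368 and 424 against 516, 549 and 458 RPKM and Cd3e at 155, 145 and 164 against 204, 203 and 179. Cd4 stood at 161, 193 and 205 against 210, 218 and 214. The 4 genes include these 3 genes. The summed level of double-positive genes overlapped, at 3466 to 4461 RPKM against 4273 to 4405. Double-negative genes had 10 higher and 8 lower with 0 that did not overlap. Mature genes had 9 higher and 10 lower estimates. In 4 of the 19 the groups did not overlap upwards (21.1%, against 6.46% of all genes) and in 1 downwards (5.26%, against 2.55%). Within them Slfn1, Ms4a4b, Ms4a6b and Dapl1 were apart upwards and Ccr7 downwards, with Ms4a4b at 24.2, 18.1 and 25.9 against 52.2, 51.1 and 44.7 RPKM and Slfn1 at 6.29, 5.66 and 5.42 against 11.3, 11.4 and 12. Regulatory T cell genes had 12 of 19 higher, with Lrrc32 and Socs2 apart upwards (10.5%, against 6.46% of all genes) and Itgae downwards (5.26%, against 2.55%). Myc, at 21.9, 17.5 and 25.4 against 30.3, 31.9 and 33.0 RPKM, and Nr4a2 were the 2 of 24 antigen receptor and immediate early genes to separate. Plk1 was the 1 of 29 cell cycle genes to do so. These shares were 8.33% and 3.45%, against 6.46% of all genes. Limma called none of these 3 genes.

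Genes of other cell types that a thymus piece can hold were counted in the same way. Erythroid, B cell, plasma cell and macrophage genes did not overlap upwards in 3 of 20, 2 of 19, 2 of 11 and 0 of 19 genes. These shares were 15%, 10.5%, 18.2% and 0%, against 6.46% of all genes. Macrophage genes had 14 lower estimates and 1 that did not overlap downwards, C1qb (5.26%, against 2.55% of all genes). Car2, a carbonic anhydrase, stood at 2.44, 2.46 and 2.96 against 4.16, 4.27 and 4.29 RPKM, and Jchain, the joining chain of secreted antibodies, at 0.888, 0.792 and 0.89 against 1.80, 2.03 and 3.56. Dendritic cell genes did not overlap upwards in 1 of 18 (5.56%, against 6.46%) and downwards in 2 (11.1%, against 2.55%). Among them the plasmacytoid dendritic cell receptor Siglech was lower, at 2.67, 2.48 and 1.77 against 1.15, 1.48 and 0.535, and Ly6c2 higher, at 3.89, 6.20 and 5.95 against 7.68, 11.1 and 13.6. Parathyroid, thyroid and lymph node genes had summed levels of 14.3 to 15.0 RPKM against 16.6 to 25.3, with Cxcl13 and Clu apart upwards (2 of 10, 20%, against 6.46%). Gamma-delta T cell genes had 4 higher and 4 lower estimates and 0 groups apart. Glucocorticoid response genes had 13 of 14 lower estimates with a median of −0.27, but in 0 of them did the groups separate, and heat shock genes had 7 higher and 6 lower with 0 separate.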

How the data were processed

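The authors deposited RPKM values for 24786 genes in 9 thymus libraries. The submitters' processing notes list STAR 2.5.2b and mm10, and no counting tool or annotation is given in the sources used here. Depth was inferred from steps between low values of 4730 single-transcript genes, of which 53.8% to 59.1% were whole within 0.1 read (20% by chance), too few to recover reads. Liver tables were not used.

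Limma 3.58.1 (R 4.3.3; two-sided, intensity trend) was run on log2(RPKM + 1) over all 9 libraries, once for genes with at least 1 RPKM in at least 3 libraries and once for every gene above 0 in any. The pseudocount understates changes of low genes. P-values were Benjamini-Hochberg adjusted, with a threshold of 0.05. An exact permutation test of 3 against 3 cannot go below 0.1, so groups that do not overlap were counted without a test.

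Named were Aire, Tgfbr2, the 10 largest rises, falls by smallest p, up to 4 members of each list with separate groups, and 5 genes of the tissue. Members and lists were chosen with earlier results of these data known. Positions are from GENCODE vM21 (GRCm38). Identical values were shared by 96 genes in 41 sets. The procedure was tested on simulated data. Changes were added there only to genes of higher level than most of the genes called here, so the simulation does not cover calls at such low levels. Alternatives included pseudocounts, filters, scalings, a replicate block, sex as a covariate, libraries left out and, added after seeing the data, length-corrected values (lowess, span 0.3). A few results are not reported here.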

Additional observations from a re-analysis of the deposited data

How the results depend on the processing

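In the filtered fit the count of 0 called genes became 9 with a filter of 0.1 RPKM, 41 with no filter, and 7 with length-corrected values without TG Aire-/- replicate 1. Over the 9 libraries left out in turn it ran from 0 to 4. In the fit of all genes the 41 calls became 9 with the filter of 0.1 RPKM, 6 without the intensity trend, 12 with only the 2 groups, 11 with sex as a covariate and 7 with length-corrected values in only the 2 groups, and ran from 8 (without Aire-/- replicate 3) to 64 (without TG Aire+/- replicate 1) over libraries left out. Other scalings and pseudocounts gave 32 to 51. The 1363 genes whose groups did not overlap upwards became 1955 to 4096 and the 537 downwards 821 to 4655 over libraries left out, both highest without Aire-/- replicate 1, and quantile scaling gave 989 downwards. Whether the shared replicate numbers mark a pairing cannot be told. Deviations of same-numbered libraries correlated at 0.67, −0.18 and 0.77, and 4 of the 6 libraries correlated best with their own number. The difference along transcript length enters these deviations as well, so they do not decide it. A replicate block gave 7 calls in place of 41 and left the filtered count at 0. Of 138 named genes 136 kept their sign under every alternative. The log2 difference of Rag1, at −0.079, became 0.092 with sex as a covariate and 0.047, 0.047 and 0.046 with length-corrected values in all libraries, only the 2 groups and without TG Aire-/- replicate 1, and ran from −0.63 to 0.35 over libraries left out. That of Foxn1, at −0.073, became 0.030 with sex as a covariate and ran from −0.21 to 0.089. Of 47 list medians 30 kept their sign. The causes were not tested. Sample weights were not run to an end, as the weights could not be fitted. Values of 0 and those under about 0.06 RPKM rest on fewer than 3 reads for a gene of 2000 bases, and absence cannot be read from them.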

Other observations

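Pth, the parathyroid hormone gene, was listed at 0 RPKM in 8 of the 9 thymus libraries and stood at 8.54 in TG Aire+/- replicate 1. The gene lies in the list of parathyroid, thyroid and lymph node genes, whose summed level was 25.3 RPKM at most in TG Aire+/- thymus.

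Tdg, a DNA glycosylase gene, and Gm9855, annotated as a processed pseudogene, had values that followed each other across libraries and groups that did not overlap. Tdg stood at 2.66, 5.44 and 6.12 RPKM in Aire-/- and at 11.5, 12 and 18.0 in TG Aire+/-, with 2.53, 2.40 and 3.03 in TG Aire-/-, and reads may be split between a gene and a near-identical copy. The limma adjusted p of Tdg was 0.302. These genes were picked after their values were seen.

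Genes near Aire on chromosome 10, which an engineered allele can carry with it from another strain, were counted. Within 5 megabases of Aire on either side 168 genes passed the filter, of which 9 lay apart upwards (5.36%) and 4 downwards (2.38%), shares close to those of all filtered genes (5.49% and 2.26%).

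Samd9l, an interferon-responsive gene outside the lists, stood at 4.71, 5.45 and 7.56 RPKM in Aire-/-, at 14.7, 9.95 and 11.0 in TG Aire+/- and at 10.5, 10.6 and 9.28 in TG Aire-/- (limma adjusted p = 0.397 for the main comparison). Ear2, an eosinophil ribonuclease gene, stood at 11.0, 17.8 and 14.9 against 8.29, 6.48 and 8.51 RPKM, and its near-identical paralogues make it uncertain as a single gene.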
